A study of Mus musculus with 16 samples.

Results

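Immediate-early genes are described here through 10 members: the AP-1 subunits Fos, Fosb, Jun and Junb, the zinc-finger factors Egr1 and Egr2, the growth-response gene Ier2, the stress-induced factor Atf3, and the orphan nuclear receptors Nr4a1 and Nr4a2. They were taken by symbol from the platform annotation of the array. The 10 genes are carried by 20 of the 62976 array features, and all of them are among the 20173 named genes that were tested. Fos has 10 features, Nr4a2 has 2 and each other member has 1.

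Whole-lung homogenates were taken from mouse pups on day 3 after birth and hybridised one to an array, on a one-colour Agilent oligonucleotide design. Wild-type and Fgf10+/- pups were kept in normoxia, or in a chamber with 85% oxygen from day 0 to day 3, which gave 4 groups of 4 arrays. Fgf10+/- pups have lost 1 of their 2 copies of Fgf10, whose product is a mesenchymal growth factor that drives branching and epithelial growth in the lung. The values are deposited log2 intensities. Litters are not named in the labels, and a p-value here reflects the spread among the arrays alone.

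Immediate-early genes are transcribed within minutes of a stimulus, without new protein synthesis, through kinase pathways that act on factors already bound at their promoters, such as CREB and the serum response factor. Their transcripts are short-lived, and several of their products are transcription factors that pass the signal on to later genes. They respond to growth factors, oxidants and mechanical strain, and also to handling and dissociation of tissue.

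Array replicates of a group correlated with r between 0.974 and 0.983 over the tested genes. The array medians all lay at 4.50, and epithelial markers of the lung averaged 12.08 to 12.66 in all 16 arrays. Fgf10 itself was not called between the genotypes: its tested feature, 1 of 10, read 7.24 to 8.14 in wild-type and 7.88 to 8.66 in Fgf10+/- normoxia (difference 0.48, SE 0.20, limma adjusted p = 0.334), and 7.64 to 8.07 and 7.39 to 7.96 in hyperoxia (-0.21, SE 0.20, limma adjusted p = 0.835). Within Fgf10+/- it fell by 0.64 in hyperoxia (SE 0.20, limma adjusted p = 0.0347), and in wild type its difference was 0.06 (SE 0.20). Where this feature lies relative to the disrupted part of the gene is not known here, so it does not check the labels, and Fgf10+/- means labelled so throughout. One array stood apart: wild-type normoxia replicate 4 had 12 skeletal muscle markers at a mean of 8.08, where the other 15 arrays had 4.61 to 5.22. Its 8 brown fat markers averaged 6.68, where the others had 4.98 to 5.53. In this array Acta1, the skeletal actin, was at 11.26 and Ucp1, the uncoupling protein of brown fat, at 7.50, while Ckm, the muscle creatine kinase, was at 5.95 and another array reached 6.11. The member differences that it moves most are given with and without it. Blood and heart markers also varied between arrays. The erythroid markers averaged 9.71 in Fgf10+/- normoxia replicate 1 and 12.97 in replicate 3 of that group. Cardiac muscle markers averaged 8.55 in Fgf10+/- normoxia replicate 1 and 9.84 in Fgf10+/- hyperoxia replicate 4. Their part in the member values was not tested. In whole-lung RNA, fewer cells of a type and less RNA per cell cannot be told apart.

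The promoter windows show what letters the members share next to their start sites. RefSeq windows on GRCm38.p6 were used for 8 of the 10 members, all but Egr1 and Ier2. The 250 bases upstream of the start were searched on both strands. The core of the cAMP response element (TGACG, or CGTCA on the other strand) was found in 7 of these 8 members in at least 1 of their windows, against 19.8% of 27025 genes counted the same way. Counted by window, 9 of the 12 member windows held it, against 17.8% of 32851 windows. Windows are not matched for base composition, and a match is a description of letters, not of binding. The full cAMP response element (TGACGTCA, which contains the core on each strand) was in 1.5% of all windows, the AP-1 site TGANTCA in 6.7%, the EGR site GCGNGGGCG in 4.7%, the CArG box (the serum response element core) in 1.5% and TATAAA in 12.4%. No member window held the full element or an AP-1 site. The EGR site was in the windows of Fosb, Nr4a1 and Nr4a2, and TATAAA in those of Fos and Nr4a2. Among the members, only windows of Egr2 held the CArG box.

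The windows shown are of genes that the array values below turn on or that differ in their letters. Capitals mark the core or the full element and, in Egr2, also the CArG box. The windows are Fos at chr12:85473640-85473889, Nr4a1 at chr15:101266596-101266845 and Egr2 at chr10:67537619-67537868 on the plus strand, and Nr4a2 at chr2:57124004-57124253, Jun at chr4:95052223-95052472 and Dusp1 at chr17:26508473-26508722 on the minus strand. Each is written 5′ to 3′ in the direction of transcription, so that its last base lies next to the start.
Fos: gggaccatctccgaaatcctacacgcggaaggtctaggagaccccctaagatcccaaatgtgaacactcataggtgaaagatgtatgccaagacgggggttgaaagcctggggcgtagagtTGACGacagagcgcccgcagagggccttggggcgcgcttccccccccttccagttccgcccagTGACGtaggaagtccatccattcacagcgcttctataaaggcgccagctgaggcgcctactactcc
Nr4a1: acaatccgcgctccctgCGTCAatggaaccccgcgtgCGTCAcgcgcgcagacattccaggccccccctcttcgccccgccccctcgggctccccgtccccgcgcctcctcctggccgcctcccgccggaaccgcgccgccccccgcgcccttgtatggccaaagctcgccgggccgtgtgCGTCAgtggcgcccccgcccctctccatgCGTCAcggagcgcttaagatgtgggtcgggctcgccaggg
Nr4a2: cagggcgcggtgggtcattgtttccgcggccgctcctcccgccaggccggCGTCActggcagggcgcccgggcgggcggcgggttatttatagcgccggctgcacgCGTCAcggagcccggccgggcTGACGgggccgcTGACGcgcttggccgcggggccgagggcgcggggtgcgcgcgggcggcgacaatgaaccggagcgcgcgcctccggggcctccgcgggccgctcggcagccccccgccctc
Dusp1: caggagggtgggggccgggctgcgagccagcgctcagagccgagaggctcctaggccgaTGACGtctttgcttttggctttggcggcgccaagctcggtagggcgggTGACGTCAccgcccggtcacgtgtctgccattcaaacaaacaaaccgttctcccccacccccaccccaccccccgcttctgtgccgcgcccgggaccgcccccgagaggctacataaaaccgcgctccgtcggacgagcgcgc
Egr2: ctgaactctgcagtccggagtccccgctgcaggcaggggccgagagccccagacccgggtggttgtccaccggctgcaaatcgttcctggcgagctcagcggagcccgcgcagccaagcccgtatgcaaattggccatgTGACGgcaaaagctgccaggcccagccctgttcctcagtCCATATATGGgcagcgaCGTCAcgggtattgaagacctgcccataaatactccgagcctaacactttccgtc
Jun: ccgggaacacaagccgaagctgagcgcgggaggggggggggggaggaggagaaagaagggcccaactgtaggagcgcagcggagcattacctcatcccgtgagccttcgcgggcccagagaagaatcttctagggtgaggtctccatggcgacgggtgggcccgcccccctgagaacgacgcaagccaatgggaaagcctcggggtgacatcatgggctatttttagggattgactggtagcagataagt
The Fos window has cores that begin 129 and 66 bases upstream and a TATAAA that begins at 33. Nr4a1 has 4 cores, at 233, 213, 69 and 40, and Nr4a2 has 4, at 200, 144, 123 and 111. Dusp1, a MAP kinase phosphatase that is no member but whose level followed the members most closely, has the full element at 143. Egr2 has 5 annotated starts, whose windows overlap in part; 3 of the 5 hold the core and the other two do not. The Egr2 window shown is one with the core, and has a CArG box at 72 between cores at 111 and 55. Jun has none of the 6 motifs in its window.

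No member passed the test for hyperoxia within either genotype. With limma and Benjamini-Hochberg adjustment over all 20173 genes, 0 of 10 members were called in wild type, where 19.1% of all genes were, and 0 of 10 in Fgf10+/-, where 23.7% were. At an unadjusted p under 0.05 the counts were 2 of 10 and 1 of 10, against 31.1% and 34.2% of all genes. The median difference of the members was -0.04 in wild type and 0.11 in Fgf10+/-, beside 0.03 for all genes in both. No member had groups of arrays that did not overlap in either oxygen comparison, while 24.8% and 24.9% of all genes did. By the exact two-sided permutation test, whose smallest p with 4 against 4 arrays is 0.0286, 0 of 10 members had a p under 0.05 in either oxygen comparison.

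**Figure D1:**
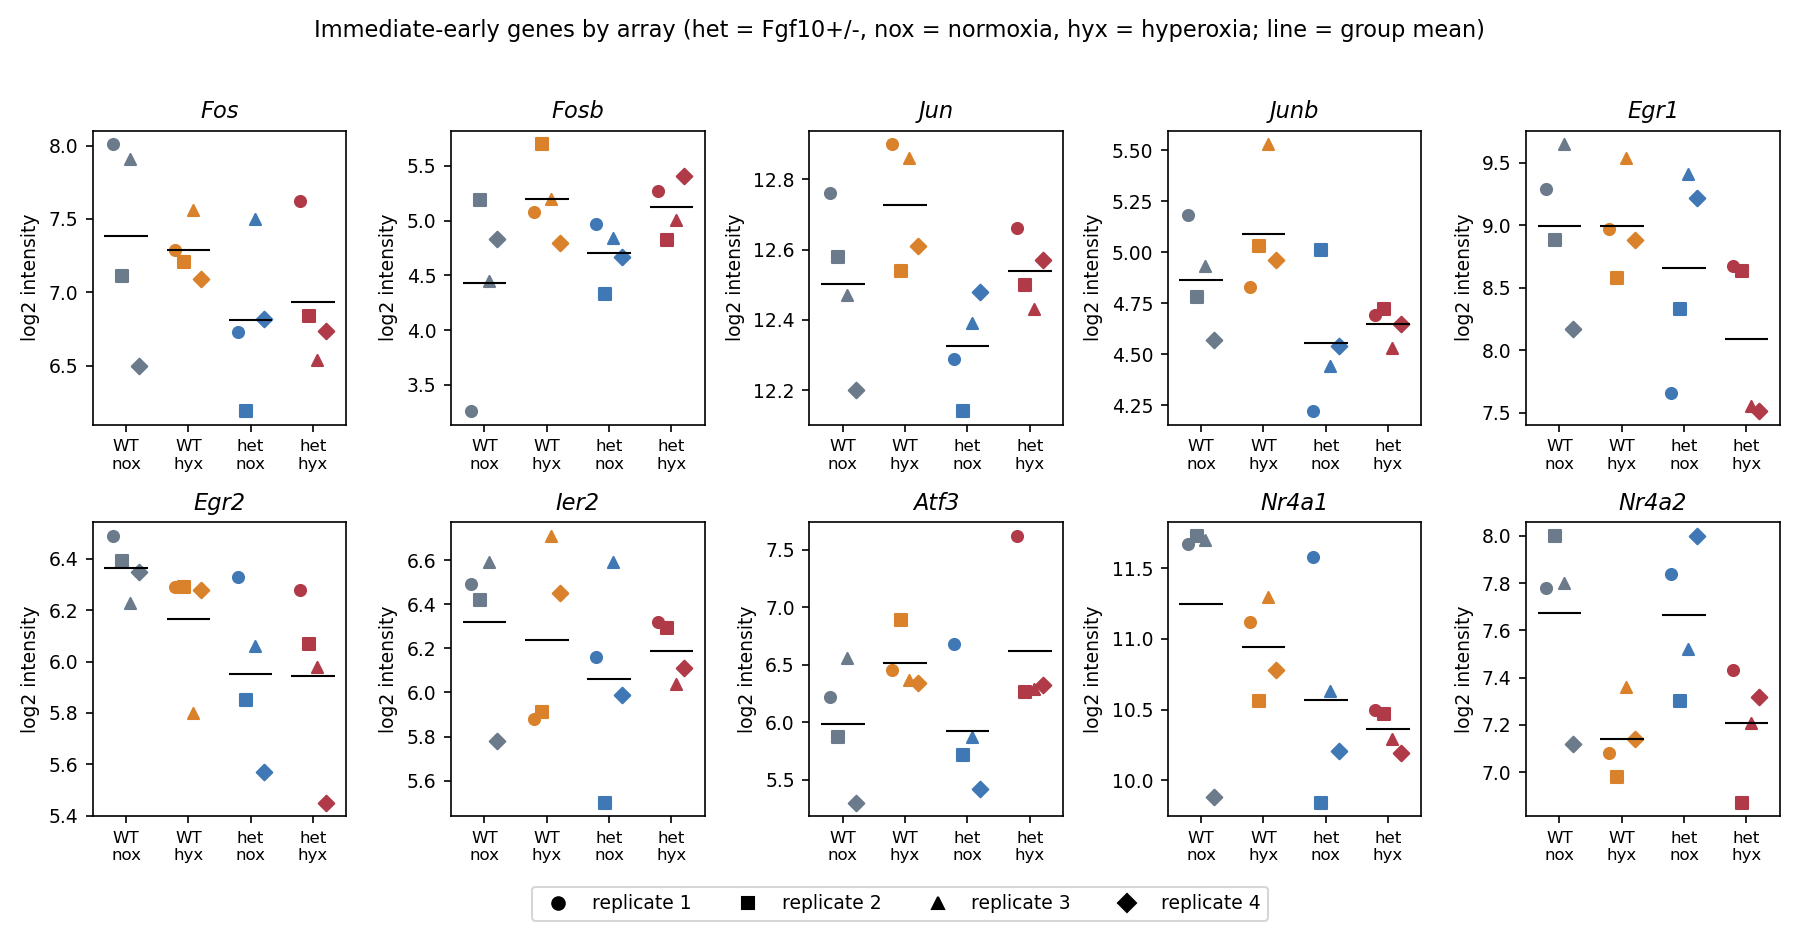
Log2 intensity of each of the 10 members in every array, by group on the x axis (WT wild type, het Fgf10+/-, nox normoxia, hyx hyperoxia). Symbols are replicates and lines are group means; each panel has its own y axis, which does not start at 0. Replicate 4 of wild-type normoxia lies lowest of its group in Fos, Jun, Junb, Egr1, Ier2, Atf3, Nr4a1 and Nr4a2.

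Fos encodes the partner that makes AP-1 dimers with JUN proteins. Its brightest feature read 8.01, 7.11, 7.91 and 6.50 in wild-type normoxia and 7.29, 7.21, 7.56 and 7.09 in wild-type hyperoxia. In Fgf10+/- pups it read 6.73, 6.19, 7.50 and 6.82 in normoxia and 7.62, 6.84, 6.54 and 6.74 in hyperoxia. The wild-type normoxia arrays spanned the whole range of the hyperoxia arrays, and each Fgf10+/- group had a single high array. The hyperoxia difference was -0.09 (SE 0.34) in wild type and 0.12 (SE 0.34) in Fgf10+/-, with 95% intervals from -0.83 to 0.64 and from -0.61 to 0.86. The first was -0.39 (SE 0.32, limma adjusted p = 0.472) without wild-type normoxia replicate 4.

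The 10 Fos features were read from the same RNA on each array. Within an array they differed from each other, after each was set to its own mean, with an SD of 0.15 to 0.30 (median 0.19), which covers the noise of single features alone. The mean of the 10 features varied with an SD of 0.50 between arrays of a group, which also holds labelling, hybridisation and the differences between pups. All 10 features were below 0 for hyperoxia in wild type, at -0.54 to -0.09, and 0 were called. The features are not replicates.

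Fosb, a close relative of Fos, lay near the array median and is dim: it was above it in 13 of 16 arrays. It read 3.26, 5.19, 4.45 and 4.83 in wild-type normoxia against 5.08, 5.70, 5.20 and 4.80 in hyperoxia. In Fgf10+/- the arrays were at 4.97, 4.33, 4.84 and 4.67 in normoxia and at 5.27, 4.82, 5.01 and 5.41 in hyperoxia. The low end of wild-type normoxia was 1 array, replicate 1, and the groups overlapped in both genotypes. The differences were 0.77 (SE 0.33, limma adjusted p = 0.127) and 0.43 (SE 0.33, adjusted p = 0.407). The first value depended on single normoxia arrays. It was 0.38 (SE 0.24, limma adjusted p = 0.320) without replicate 1, 1.02 (limma adjusted p = 0.0478) without replicate 2, the highest, and 0.90 (limma adjusted p = 0.110) without replicate 4.

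Jun, the main partner of Fos in AP-1, is read by a bright feature with little scatter. Its values in wild type were 12.76, 12.58, 12.47 and 12.20 in normoxia and 12.90, 12.54, 12.86 and 12.61 in hyperoxia. In Fgf10+/- they were 12.29, 12.14, 12.39 and 12.48, then 12.66, 12.50, 12.43 and 12.57. Group means were higher in hyperoxia in both genotypes and the arrays overlapped. The difference was 0.23 (95% interval -0.05 to 0.50) in wild type and 0.21 (-0.06 to 0.49) in Fgf10+/-, so that a change beyond 0.50 lies outside both intervals. Without replicate 4 of wild-type normoxia the first was 0.13 (SE 0.12).

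Junb, a JUN protein that often restrains Jun, is dim as well, above the array median in 14 of 16 arrays. It read 5.18, 4.78, 4.93 and 4.57 in wild-type normoxia and 4.83, 5.03, 5.53 and 4.96 in hyperoxia. Fgf10+/- arrays were at 4.22, 5.01, 4.44 and 4.54 in normoxia and at 4.69, 4.72, 4.53 and 4.65 in hyperoxia. All 4 Fgf10+/- hyperoxia arrays lay below all 4 wild-type hyperoxia arrays, while the oxygen groups overlapped within each genotype. The hyperoxia difference was 0.22 (SE 0.18) in wild type, or 0.12 (SE 0.19) without replicate 4 of wild-type normoxia, and 0.10 (SE 0.18) in Fgf10+/-.

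Egr1, a zinc-finger factor that binds GC-rich promoters, varied widely inside every group. Wild-type arrays were at 9.29, 8.88, 9.65 and 8.17 in normoxia and at 8.97, 8.58, 9.54 and 8.88 in hyperoxia. Fgf10+/- arrays were at 7.66, 8.33, 9.41 and 9.22 in normoxia and at 8.67, 8.63, 7.55 and 7.51 in hyperoxia. The wild-type oxygen groups overlapped almost fully, and the Fgf10+/- groups overlapped although their means differed. Its hyperoxia difference was -0.01 (SE 0.42) in wild type and -0.56 (SE 0.42, 95% interval -1.46 to 0.34) in Fgf10+/-. The wild-type value was -0.28 (SE 0.43, limma adjusted p = 0.734) without replicate 4 of normoxia.

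Egr2, known for its part in myelin and in lymphocytes, was steadier. It read 6.49, 6.39, 6.23 and 6.35 in wild-type normoxia and 6.29, 6.29, 5.80 and 6.28 in hyperoxia, and in Fgf10+/- 6.33, 5.85, 6.06 and 5.57, then 6.28, 6.07, 5.98 and 5.45. Wild-type normoxia was the tightest group and the highest on average. The hyperoxia difference was -0.20 (SE 0.19) in wild type, and the Fgf10+/- oxygen groups both averaged 5.95. For Ier2, a small nuclear protein induced early by serum, the arrays read 6.49, 6.42, 6.59 and 5.78, then 5.88, 5.91, 6.71 and 6.45 in wild type, and 6.16, 5.50, 6.59 and 5.99, then 6.32, 6.29, 6.04 and 6.11 in Fgf10+/-. Its oxygen groups overlapped throughout, with differences of -0.08 (SE 0.24) and 0.13 (SE 0.24). Without replicate 4 of wild-type normoxia, Egr2 in wild type stayed at -0.20 and Ier2 was at -0.26 (SE 0.24).

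Atf3, a repressor of the ATF and CREB family that is induced by many stresses, had higher means in hyperoxia in both genotypes. Wild-type arrays were at 6.22, 5.87, 6.56 and 5.30 in normoxia and at 6.45, 6.89, 6.37 and 6.34 in hyperoxia. Fgf10+/- arrays were at 6.68, 5.72, 5.87 and 5.42 in normoxia and at 7.62, 6.26, 6.29 and 6.32 in hyperoxia. In each genotype 3 of 4 normoxia arrays lay below every hyperoxia array and the fourth did not. The difference was 0.52 (SE 0.35, limma adjusted p = 0.340) in wild type and 0.70 (SE 0.35, limma adjusted p = 0.173) in Fgf10+/-. Single arrays moved both values. Without replicate 4 of wild-type normoxia the first was 0.29 (SE 0.35, limma adjusted p = 0.643), and without the array at 7.62 the second was 0.36 (SE 0.30, limma adjusted p = 0.458).

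Nr4a1, an orphan nuclear receptor induced by growth factors and by cAMP, had the widest gap inside one group. In wild-type normoxia replicates 1 to 3 were at 11.67, 11.73 and 11.70 and replicate 4 was at 9.88, while wild-type hyperoxia had 11.12, 10.56, 11.30 and 10.78. Fgf10+/- arrays were at 11.58, 9.84, 10.63 and 10.21 in normoxia and at 10.50, 10.47, 10.29 and 10.19 in hyperoxia. Apart from replicate 4, every wild-type normoxia array lay above every wild-type hyperoxia array. The hyperoxia difference in wild type was -0.30 (SE 0.41, limma adjusted p = 0.678), and without replicate 4 it was -0.76 (SE 0.31, limma adjusted p = 0.122). In Fgf10+/- it was -0.20 (SE 0.41).

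Nr4a2, a close relative of Nr4a1, was lower in hyperoxia in both genotypes, and it was the single member called for oxygen, when the genotypes were averaged. Its brighter feature read 7.78, 8.0, 7.80 and 7.12 in wild-type normoxia and 7.08, 6.98, 7.36 and 7.14 in hyperoxia. In Fgf10+/- it read 7.84, 7.30, 7.52 and 8.0 in normoxia and 7.43, 6.87, 7.21 and 7.32 in hyperoxia. Replicate 4 of wild-type normoxia lay among the hyperoxia arrays and the other 3 above them all. The difference was -0.53 (SE 0.20, limma adjusted p = 0.0760) in wild type and -0.46 (SE 0.20, limma adjusted p = 0.114) in Fgf10+/-.

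Averaged over the genotypes, a comparison added after the data were seen, Nr4a2 fell by 0.50 (SE 0.14, 1.41-fold lower, limma adjusted p = 0.0128), the single call among the 10 members where 33.4% of all genes were called. The other feature of Nr4a2 gave a value in the same direction, -0.41, that was not called (limma adjusted p = 0.129). Without wild-type normoxia replicate 4 the wild-type difference alone was -0.72 (SE 0.17, limma adjusted p = 0.0132). Counting Nr4a2, 4 of 10 members had an unadjusted p under 0.05 in the averaged comparison, as did 41.3% of all genes. The 3 of these that were not called were Fosb at 0.60 (SE 0.23), Atf3 at 0.61 (SE 0.24) and Jun at 0.22 (SE 0.09), with limma adjusted p of 0.0642, 0.0703 and 0.0764. Leaving out wild-type normoxia replicate 4, Atf3 was at 0.50 (limma adjusted p = 0.137), Jun at 0.17 (0.145) and Fosb at 0.66 (0.0530).

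**Figure D2:**
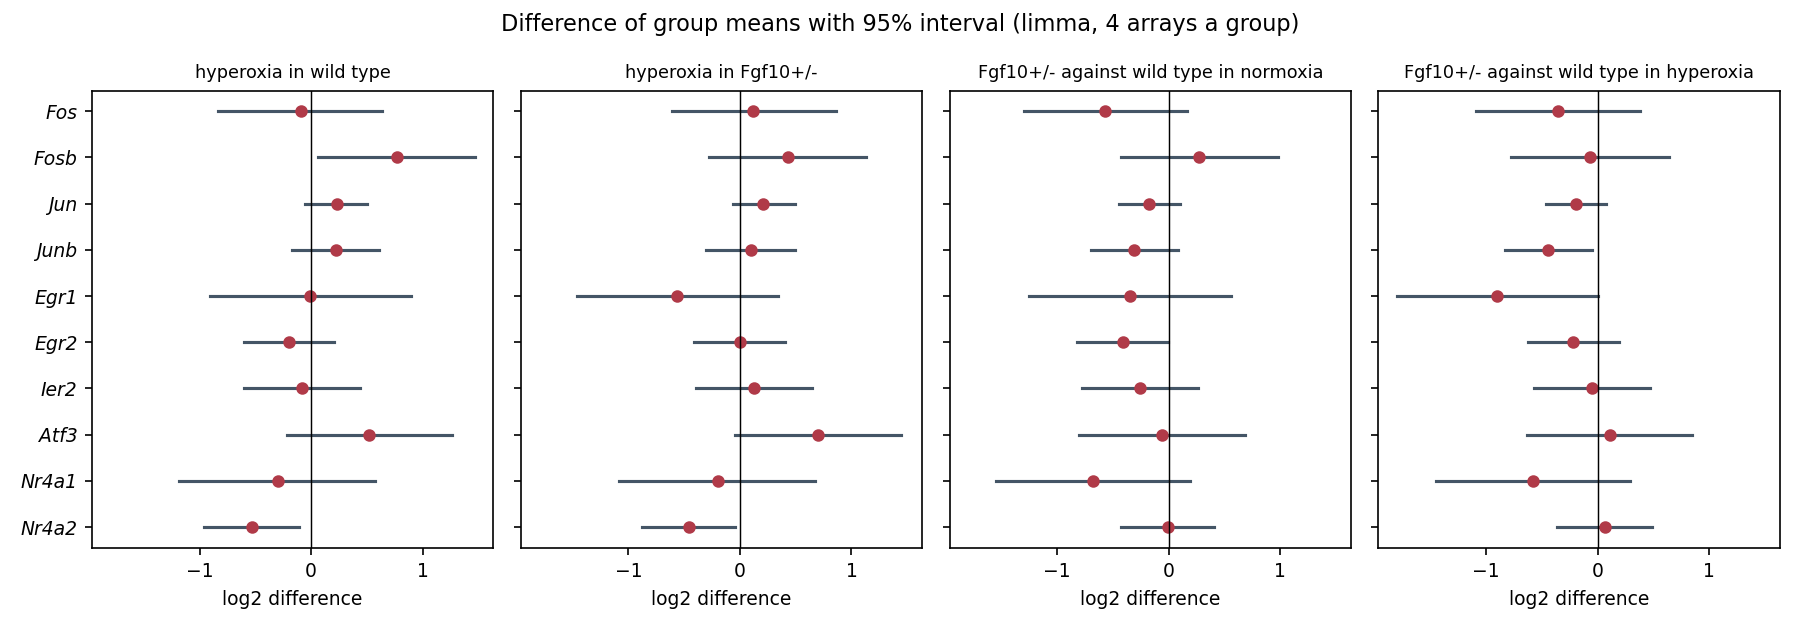
Log2 difference of group means for each member (points) with its 95% interval from limma (lines), in the 4 comparisons named above the panels. Intervals are narrowest for Jun and span more than 1.5 log2 units for Egr1 and Nr4a1; Nr4a2 lies below 0 in both oxygen panels, and most members lie below 0 in the genotype panels.

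Genotype was compared at each oxygen level, with the wild-type groups shared between these and the oxygen comparisons. By limma 0 of 10 members were called in normoxia, where 0.719% of genes were called, and 0 of 10 in hyperoxia, where 0.411% were. At an unadjusted p under 0.05 the count was 1 of 10 in each, against 12.9% and 9.01% of all genes. The member values leaned one way: 9 of 10 were below 0 in normoxia (median -0.29) and 8 of 10 in hyperoxia (median -0.20), beside 50.5% and 51.1% of all genes. The members vary together from array to array, so these counts are not 10 independent readings.

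In normoxia the members furthest from 0 were Nr4a1 at -0.68 (SE 0.41), Fos at -0.57 (SE 0.34) and Egr2 at -0.41 (SE 0.19), with limma adjusted p of 0.536, 0.535 and 0.377. All 10 Fos features were below 0, at -0.70 to -0.44. No member had groups that did not overlap there, beside 7.53% of all genes. The muscle-rich wild-type array lay low in most members, and without it the values were larger: -1.14 (SE 0.31, limma adjusted p = 0.0933) for Nr4a1 and -0.87 (SE 0.32, limma adjusted p = 0.209) for Fos. Egr1 went from -0.35 to -0.62 (limma adjusted p = 0.555) and Ier2 from -0.26 to -0.44 (0.432), while Egr2 went from -0.41 to -0.42.

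In hyperoxia Junb and Nr4a1 were lower in all 4 Fgf10+/- arrays than in any wild-type array, 2 of 10 members, where 5.98% of all genes had groups that did not overlap. Junb was at -0.44 (SE 0.18, limma adjusted p = 0.480) and Nr4a1 at -0.58 (SE 0.41, limma adjusted p = 0.731), and for both the exact permutation test gave its smallest p, 0.0286. Egr1 had the largest difference, -0.90 (SE 0.42, limma adjusted p = 0.556), with 2 of 4 Fgf10+/- arrays below every wild-type array. Fos was at -0.35 (SE 0.34) by its brightest feature, the lowest of its 10 features in this comparison. They ranged from -0.35 to 0.15 with a median of -0.10, and 8 of 10 were below 0.

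Averaged over the oxygen levels, again a comparison added later, 0 of 10 members were called by limma, where 2.24% of genes were, and 3 of 10 had an unadjusted p under 0.05, beside 14.2% of all genes. These were Junb at -0.38 (SE 0.13, limma adjusted p = 0.172), Egr2 at -0.32 (SE 0.13, limma adjusted p = 0.290) and Nr4a1 at -0.63 (SE 0.29, limma adjusted p = 0.342). Without wild-type normoxia replicate 4, Nr4a1 was at -0.86 (SE 0.21, limma adjusted p = 0.0483) and passed. Lung epithelial markers moved in the same comparisons: 3 of 10 were called lower in Fgf10+/- normoxia, where 0.719% of all genes were called. The median of the list was -0.37, with array means of 12.08 to 12.17 beside 12.40 to 12.59 in wild type. Cardiac muscle markers were lower there as well: the median of 10 was -0.72, the array means were 8.55 to 8.99 beside 9.21 to 9.51 in wild type, and 8 of 10 had an unadjusted p under 0.05. Of these Tnnt2, the cardiac troponin T, fell by 0.81 (SE 0.17, limma adjusted p = 0.0494). Heat-shock genes, a list of 15 that also holds the cold-induced Cirbp and Rbm3, lay the other way, with a median of 0.33. An unadjusted p under 0.05 was found in 8 of 15, beside 12.9% of all genes. By limma 0 of 15 were called, beside 0.719% of all genes, and 3 without wild-type normoxia replicate 4, beside 1.45%. The part of these markers in the member values was not tested.

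The oxygen response did not differ detectably between the genotypes. In the interaction test 0 of 10 members were called by limma, as were 0% of all genes, and 0 of 10 had an unadjusted p under 0.05, beside 6.62% of all genes. The largest value was -0.55 for Egr1 (SE 0.60, 95% interval -1.83 to 0.72), or -0.28 without wild-type normoxia replicate 4, when the largest was 0.56 for Nr4a1 (SE 0.42, limma adjusted p = 0.791). Intervals of this width do not show that the genotypes respond alike.

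Several members scattered widely inside the groups. The within-group SD was 0.62 for Nr4a1, 0.64 for Egr1, 0.52 for Fos and 0.52 for Atf3. Among genes within 0.5 log2 of the same level, 99.4%, 99.0%, 97.5% and 97.0% had a smaller SD than these. Jun, with an SD of 0.17, was above 81.7% of genes of its level, Nr4a2 (0.29) above 81.5%, Ier2 (0.36) above 80.3% and Fosb (0.50) above 77.8%. Egr2, at 0.27, was above 41.9% and Junb, at 0.26, above 5.82%, so the wide scatter did not extend to all members.

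**Figure D3:**
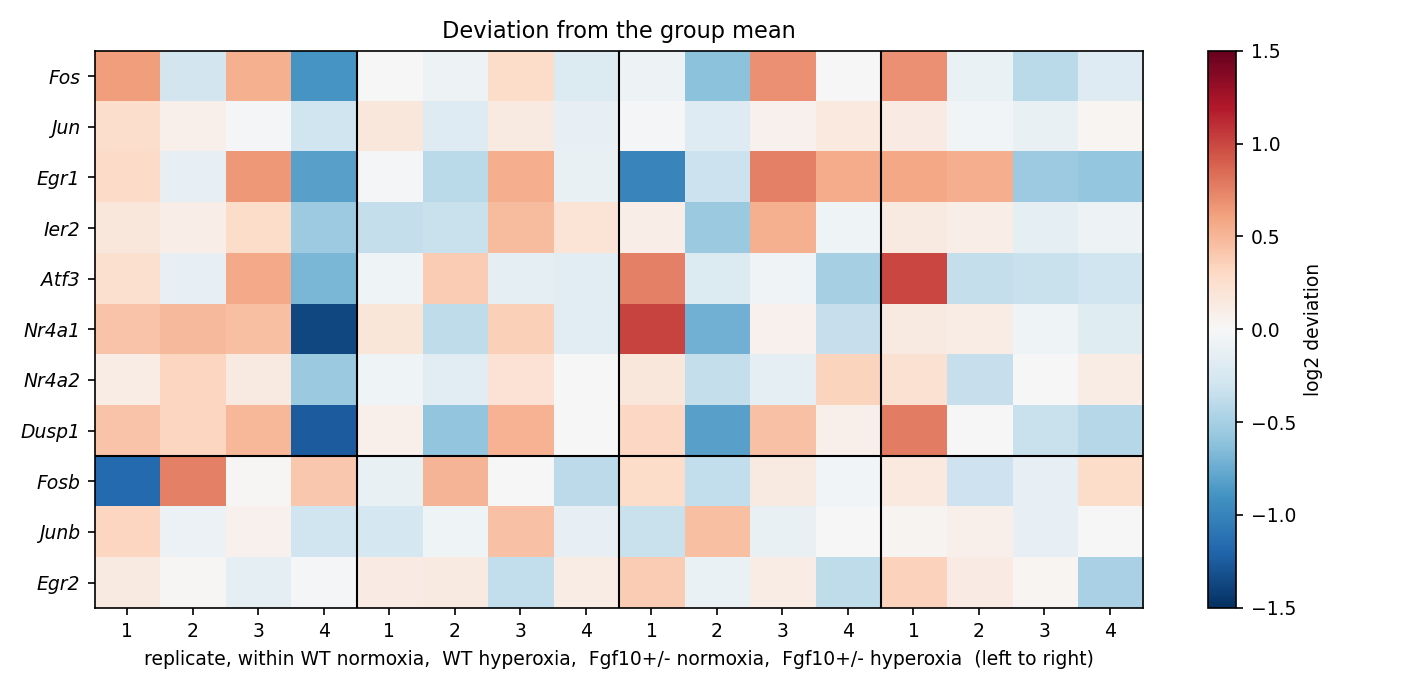
Deviation of each member and of Dusp1 from its group mean (colour, log2 scale) in the 16 arrays, ordered by group and replicate; vertical lines part the groups. The rows above the horizontal line, set apart after seeing these values, are all low in wild-type normoxia replicate 4 and Fgf10+/- normoxia replicate 2. All are high in Fgf10+/- hyperoxia replicate 1. In other arrays they can part: in Fgf10+/- normoxia replicate 1, Egr1 is at -0.99 and Nr4a1 at 1.01. The rows below the line follow the mean of the other members less closely.

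The scatter was shared between members. After each gene's group means were removed, 15 of 45 member pairs correlated above r = 0.5 over the 16 arrays (33.3%), while 4.91% of all gene pairs did. Without wild-type normoxia replicate 4, with the group means taken again, 7 of 45 did (15.6%), beside 5.55% of all gene pairs. Against the mean of the other members, r was 0.84 for Fos, 0.74 for Ier2, 0.69 for Nr4a1, 0.65 for Jun, 0.61 for Nr4a2, 0.58 for Atf3 and 0.46 for Egr1. It was 0.13 for Egr2, 0.08 for Junb and -0.23 for Fosb. Fosb and Junb lay near the array median and Egr2 above it. Among the first 7, a set chosen after seeing these values, 14 of 21 pairs were above 0.5.

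Both ends of the shared scatter lay in single arrays. Averaged over the 10 members, wild-type normoxia replicate 4 was 0.51 below its group mean, with 1 of 10 members above it, and Fgf10+/- normoxia replicate 2 was 0.30 below, also with 1 of 10. Fgf10+/- hyperoxia replicate 1 was 0.34 above, with 10 of 10 members above the group mean. Leaving out the 2 arrays furthest from the median (wild-type normoxia replicate 4 and Fgf10+/- hyperoxia replicate 1), r stayed at 0.73 for Fos, 0.72 for Ier2 and 0.60 for Nr4a1. It dropped to 0.46 for Jun, 0.35 for Nr4a2 and 0.21 for Egr1. For Atf3, where the 2 arrays left out were wild-type normoxia replicate 4 and Fgf10+/- normoxia replicate 2, it was 0.46. Without the muscle-rich array alone, r was 0.76 for Fos, 0.63 for Ier2, 0.44 for Nr4a1, 0.42 for Jun, 0.42 for Atf3, 0.32 for Nr4a2 and 0.25 for Egr1.

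Dusp1, the phosphatase that switches off MAP kinases and is itself an immediate-early gene, was the gene most like the members among all tested genes outside them when all arrays were used. Its centred values correlated with the members' mean at r = 0.96 (Spearman's rho 0.96), and at 0.92 without the 2 outermost arrays. With wild-type normoxia replicate 4 alone left out, r was 0.92 and Dusp1 ranked 3 among the genes outside the members. It read 10.05, 9.95, 10.13 and 8.37 in wild-type normoxia, 9.45, 8.78, 9.89 and 9.37 in wild-type hyperoxia, 9.27, 8.14, 9.40 and 9.04 in Fgf10+/- normoxia and 9.65, 8.88, 8.55 and 8.45 in Fgf10+/- hyperoxia. The arrays low or high in the members were low or high in Dusp1. Its own differences were not called: -0.25 (SE 0.41) and -0.08 (SE 0.41) for hyperoxia in wild type and Fgf10+/-, and -0.66 (SE 0.41) and -0.49 (SE 0.41) for genotype in normoxia and hyperoxia. Without replicate 4 of wild-type normoxia, the wild-type oxygen value was -0.67 (SE 0.34, limma adjusted p = 0.220) and the normoxia genotype value -1.08 (SE 0.34, limma adjusted p = 0.145).

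With all arrays, the next most like the members' mean were Nox1 (r = 0.92), Ctla2b, Ube2q1, Kng2 (each 0.90), Apold1, Slc33a1 (each 0.89) and Ncf1 (0.87). Without wild-type normoxia replicate 4 all of these ranked lower, from 9 for Ctla2b (r = 0.86) to 36 for Apold1 (0.79), with Nox1 at 13 (0.85). Apold1 is an endothelial early-response gene, and Nox1 and Ncf1 encode a catalytic and an organising subunit of NADPH oxidases. Nox1 and Kng2 are dim, at means of 4.82 and 4.06 where the array median was 4.50. Most like Fos were Ankrd22 (0.92), Olfr160, Hoxd3 (each 0.89), Clec4a1 and Fbxl22 (each 0.87), of which the first 3 lay below the array median. These are ranks out of 20156 genes on 16 arrays that share their processing.

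Many other immediate-early genes followed the same arrays. Of 39 tested genes in that list 15 (38.5%) were above r = 0.5 with the members' mean, beside 7.98% of all tested genes outside the members. The count was again 15 of 39, beside 6.56%, without wild-type normoxia replicate 4. Klf2, a flow-responsive factor of endothelium, was at 0.86, Errfi1, a feedback inhibitor of the EGF receptor, at 0.82, the kinase Plk3 at 0.81 and Socs3, the brake on cytokine signalling, at 0.76. Without wild-type normoxia replicate 4 these were at 0.73, 0.68, 0.61 and 0.66. With all arrays the median of the list was 0.40. Other genes of it did not follow: Egr3 was at 0.18, Egr4 at -0.25 and Nr4a3, the lowest, at -0.53. Dusp1 is counted in this list and again, like Zfp36, among the MAPK phosphatases, where 4 of 17 genes passed 0.5.

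**Figure D4:**
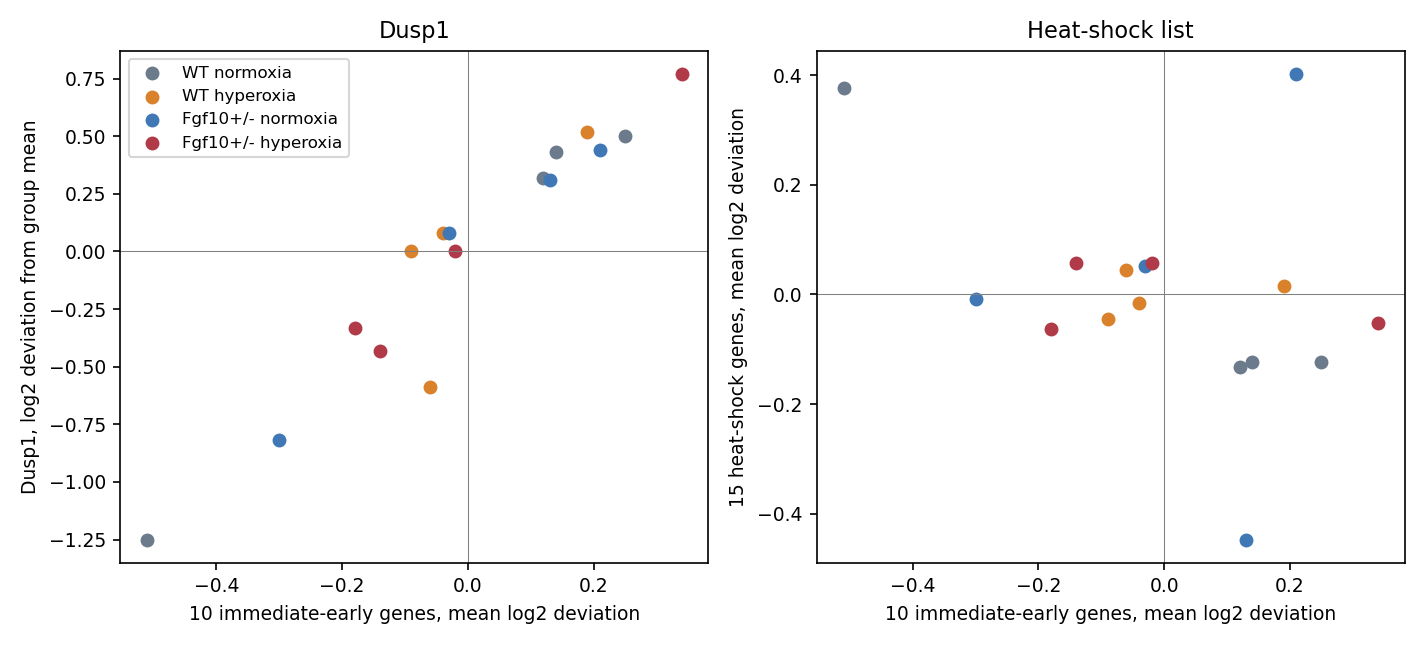
Each point is 1 of the 16 arrays; the x axis is the mean log2 deviation of the 10 members from their group means. The left y axis is the deviation of Dusp1, which rises along a line with the members. The right y axis is that of the mean of the 15 genes of the heat-shock list, which includes the cold-induced Cirbp and Rbm3. There wild-type normoxia replicate 4 is high in the heat-shock list and lowest in the members.

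Heat-shock and tissue markers moved with some of the same arrays. The median r of 15 heat-shock genes with the members' mean was -0.41, and that of the 12 skeletal muscle markers was -0.50. These medians were -0.04 and -0.07 without wild-type normoxia replicate 4. With all arrays, the cold-induced Cirbp and Rbm3 of the heat-shock list were at r = 0.54 and 0.37, and its other genes were negative. In wild-type normoxia the heat-shock genes averaged 10.89, 10.88 and 10.89 in replicates 1 to 3 and 11.39 in replicate 4, the array low in the members. In Fgf10+/- normoxia they averaged 10.94, 11.38, 11.79 and 11.44, and replicate 3, the highest, was above its group in the members. The hyperoxia arrays spanned 11.13 to 11.26. The part of muscle, brown fat or heat-shock RNA in the member values was not tested.

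The partners of the members in AP-1 and related dimers rose in part in hyperoxia. Of 13 tested genes, 3 rose and 0 fell in wild type, and 5 rose and 0 fell in Fgf10+/-. Of all genes, 10.3% rose and 8.74% fell in wild type, and 13% rose and 10.7% fell in Fgf10+/-. Maff, a small MAF protein that dimerises with NRF2 at antioxidant elements, rose by 0.94 (SE 0.26, limma adjusted p = 0.0188) and by 1.41 (SE 0.26, limma adjusted p = 0.00112). Its relative Mafk rose by 0.37 (SE 0.10) and 0.78 (SE 0.10). Batf, a JUN partner of leukocytes, rose by 0.88 (SE 0.15) and 0.48 (SE 0.15). Jund rose by 0.68 (SE 0.14) and Atf4 by 0.38 (SE 0.11) in Fgf10+/-, and in wild type they were at 0.37 (SE 0.14, limma adjusted p = 0.0747) and 0.15 (SE 0.11, limma adjusted p = 0.402), not called. In the interaction test 0 of the 13 were called, as were 0% of all genes. The median of the list was 0.15 in wild type and 0.38 in Fgf10+/-.

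Among these, the calls of Batf in wild type and of Mafk, Maff and Jund in Fgf10+/- were kept under all 26 alternative settings. The wild-type calls of Maff and Mafk were lost under 2 and 3 of them, with limma adjusted p up to 0.0553 and 0.0703. The call of Atf4 in Fgf10+/- was lost under 6 of them, with limma adjusted p up to 0.0949. Without wild-type normoxia replicate 4, Mafk in wild type was at 0.30 (limma adjusted p = 0.0607).

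Of 39 other immediate-early genes, 6 rose and 1 fell in wild-type hyperoxia, and 11 rose and 3 fell in Fgf10+/-. Of all genes, 10.3% rose and 8.74% fell in wild type, and 13% rose and 10.7% fell in Fgf10+/-. Gadd45b, a stress sensor that binds MAP kinase kinase kinases, rose by 0.99 (SE 0.19) in wild type and 0.70 (SE 0.19) in Fgf10+/-, and its relative Gadd45g by 0.63 (SE 0.13) and 0.45 (SE 0.13). Ier5 rose by 0.55 (SE 0.11) in wild type and 0.64 (SE 0.11) in Fgf10+/-, and its wild-type call was lost when all its features were averaged (0.29, limma adjusted p = 0.164). Ccn2, a matrix-linked growth regulator, rose by 0.54 (SE 0.13) in each genotype. Ptgs2, the inducible cyclooxygenase, rose by 1.30 (SE 0.26, limma adjusted p = 0.00247) in Fgf10+/- and was at 0.43 (SE 0.26, limma adjusted p = 0.298) in wild type. Zfp36l1, which promotes decay of AU-rich transcripts, fell by 0.49 (SE 0.09) and by 0.68 (SE 0.09). The list medians were 0.04 and 0.29, and without Fgf10+/- normoxia replicate 4 the 14 calls in Fgf10+/- became 7. Among all genes 23.7% were called in Fgf10+/- with all arrays and 19.8% without that one.

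**Figure D5:**
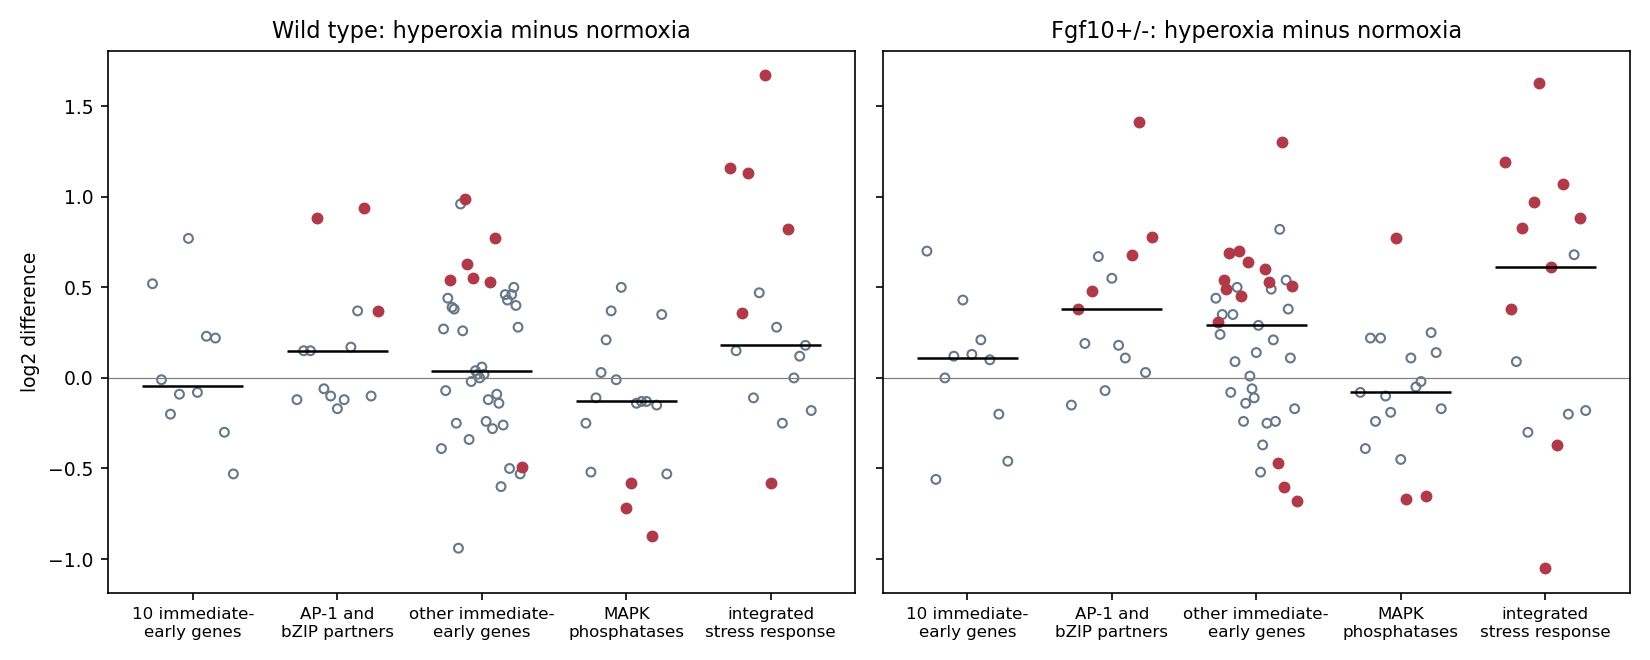
Log2 difference of hyperoxia minus normoxia for the members and 4 lists of related genes, in wild type (left) and Fgf10+/- (right). Each point is a gene, filled where limma's adjusted p was under 0.05, and lines are list medians; no member is filled, while Nupr1 lies highest in both panels.

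Of 24 kinases and factors upstream of the members, 1 rose and 1 fell in wild type, where 19.1% of all genes were called, and 3 rose and 0 fell in Fgf10+/-, where 23.7% were. Mapk3, the kinase ERK1, rose by 0.31 (SE 0.09) and 0.37 (SE 0.09), both lost when its features were averaged (0.12 and 0.25). The wild-type call was lost under 7 of 26 settings and the Fgf10+/- call under 2. Without wild-type normoxia replicate 4 the wild-type value was not called (limma adjusted p = 0.0652). Rps6ka1, a kinase downstream of ERK, rose by 0.41 in Fgf10+/- (SE 0.10) and was at 0.12 in wild type, not called. Mapk9, the kinase JNK2, rose by 0.35 in Fgf10+/- (SE 0.12, limma adjusted p = 0.0432), a call lost under 15 of 26 settings (adjusted p up to 0.117). Map2k3, a kinase that activates p38, fell by 0.46 in wild type (SE 0.14, limma adjusted p = 0.0291), a call lost under 4 of 26 settings (adjusted p up to 0.0856). Among 17 MAPK phosphatases and co-repressors, 0 rose and 3 fell in wild type, and 1 rose and 2 fell in Fgf10+/-. Spry1, an inhibitor of receptor tyrosine kinase signalling, fell by 0.87 (SE 0.15, limma adjusted p = 0.00100) and by 0.65 (SE 0.15, limma adjusted p = 0.00515). Nab1, the co-repressor that binds EGR proteins, fell by 0.58 (SE 0.11) and by 0.67 (SE 0.11). Dusp8 fell by 0.72 in wild type (SE 0.23), a call lost under 8 of 26 settings, and was at -0.45 in Fgf10+/- (limma adjusted p = 0.184). Dusp7 rose by 0.77 in Fgf10+/- (SE 0.21), but the mean of its features was at -0.01; in wild type it was at 0.50 (limma adjusted p = 0.109).

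In the integrated stress response, the pathway in which Atf3 is a target of ATF4, more genes rose than fell in hyperoxia. Of 15 tested genes 5 rose and 1 fell in wild type, and 8 rose and 2 fell in Fgf10+/-, with medians of 0.18 and 0.61. Among all genes 10.3% rose and 8.74% fell in wild type, and 13% rose and 10.7% fell in Fgf10+/-. Atf4 is counted both here and among the AP-1 partners. Nupr1, a stress-induced chromatin protein, rose by 1.67 (SE 0.14, limma adjusted p = 5.52e-06) and 1.63 (SE 0.14, limma adjusted p = 4.1e-06). Asns, asparagine synthetase, rose by 1.16 (SE 0.16) and 1.19 (SE 0.16), and Sesn2, an inhibitor of mTORC1, by 0.82 (SE 0.17) and 1.07 (SE 0.17). Chac1, which degrades glutathione, rose by 1.13 (SE 0.28) and 0.83 (SE 0.28), and Phgdh, of serine synthesis, fell by 0.58 (SE 0.15) and by 1.05 (SE 0.15). Beside these, Atf3 itself stayed at 0.52 and 0.70, not called. Of the 15 genes of the heat-shock list 2 rose and 2 fell in wild type, and 1 rose and 4 fell in Fgf10+/-. The falls included Rbm3, which is cold-induced, at -0.40 (SE 0.12) and -0.41 (SE 0.12).

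By genotype these related lists held no call at either oxygen level. In each of the 2 genotype comparisons and in the interaction, limma called 0 of 13 AP-1 partners, 0 of 39 other immediate-early genes, 0 of 24 upstream genes, 0 of 17 phosphatases and 0 of 15 stress-response genes. Few genes of any kind were called: 0.719% of all genes in normoxia, 0.411% in hyperoxia and 0% in the interaction. At an unadjusted p under 0.05, in normoxia, these lists had 2, 7, 1, 4 and 3 genes, beside 12.9% of all genes. Without wild-type normoxia replicate 4, 1 AP-1 partner (Mafk) and 1 other immediate-early gene were called in normoxia, beside 1.45% of all genes. Averaged over oxygen levels 1 of the 39 other immediate-early genes was called, beside 2.24% of all genes. This was Errfi1, which fell by 0.58 (SE 0.13, limma adjusted p = 0.0272), a call lost when any of 11 of the 16 arrays was left out (adjusted p up to 0.0612).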

How the data were processed

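The values are log2 intensities as deposited by the authors, 1 column per array; RNA isolation with a miRNeasy kit and Cy3 labelling are given per the labels' protocols. The normalization and background correction are not stated; the array medians differ by under 0.001, which is how quantile-normalized values look. Features were named through the platform annotation, with 31465 of 62976 naming 1 symbol, 29036 of them updated by RefSeq accession. Features had to exceed the 25th percentile in 4 or more arrays; the kept feature with the highest mean stood for a gene. One limma 3.58.1 model (R 4.3.3) of 16 arrays with 4 group means, 12 residual and 2.129 prior degrees of freedom, gave all contrasts, with Benjamini-Hochberg adjustment over 20173 genes and calls at an adjusted p under 0.05. It was tested on simulated data. Signal over background and the number of arrays limit the precision. Members and lists were chosen with earlier results of these data known. Named list genes are up to 4 per list with the smallest p among those called, or the 2 with the smallest p where none was. The 8 genes most like the members' mean and the 5 most like Fos go by Pearson's r after group means were removed. Markers of lung cell types, cardiac muscle and erythroid cells were listed as checks. Alternatives changed the filter, feature choice, scaling, variance model, array weights, samples fitted, replicate block, sex covariate (sex read from Xist and Y-linked genes) and each array in turn. The averaged comparisons, the correlations without wild-type normoxia replicate 4 and the motif shares by gene were added after seeing the data.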

Additional observations from a re-analysis of the deposited data

Results flagged for a closer look

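Of 44 groups of 4 arrays, taken over the 10 members and Dusp1, 4 had a highest or lowest array whose gap to the nearest other exceeded Dixon's 95% critical value for the share of the range. Chance flags about 1 in 20 groups. Nr4a1 in wild-type normoxia replicate 4 was at 9.88, where the other 3 arrays were at 11.67 to 11.73. Dusp1 in the same array was at 8.37, where the others were at 9.95 to 10.13. This is the array with skeletal muscle markers at a mean of 8.08 and heat-shock genes at 11.39; their part was not tested. Atf3 in Fgf10+/- hyperoxia replicate 1 was at 7.62, where the others were at 6.26 to 6.32; in that array all 10 members were above their group mean. Egr2 in wild-type hyperoxia replicate 3 was at 5.80, where the others were at 6.28 to 6.29; in that array 7 of 10 members were above their group mean.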

How the results depend on the processing

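The count of members called was 0 in all alternatives run for hyperoxia in Fgf10+/-, both genotype comparisons and the interaction. The share of all genes called in these alternatives was 17.4% to 35.3% for hyperoxia in Fgf10+/-. It was 0% to 2.15% for genotype in normoxia, 0% to 1.11% for genotype in hyperoxia and at most 0.00496% in the interaction. For hyperoxia in wild type the member count rose from 0 to 1, which was Nr4a2, with the filter at the 50th percentile, with limma's trend and robust options and with array weights. These settings called 29.3%, 22.2% and 21.3% of all genes. The member count ranged from 0 to 1 with each array left out (Fosb without wild-type normoxia replicate 2, Nr4a2 without replicate 4). Without these arrays 15.3% and 15.8% of all genes were called. Averaged over genotypes, chosen after seeing the data, the member count rose from 1 to 4 with the 50th percentile filter and with trend and robust options (Fosb, Jun, Atf3 and Nr4a2). These settings called 47.3% and 35.1% of all genes. The member count was 2 with the replicate block (Atf3 and Nr4a2), beside 33.2% of all genes. With each array left out it was 1 to 2, beside 31.1% to 33% of all genes. Averaged over oxygen levels the member count was 0 to 1, the 1 being Nr4a1 without wild-type normoxia replicate 4, where 3.01% of all genes were called. The causes were not tested. Nr4a2 in the comparison averaged over genotypes stayed called in all 25 alternatives, at -0.59 to -0.44. With the replicate number as a block the other counts stayed at 0. Same-number correlations of residuals were -0.029 to 0.087. They pool all genes, and so cannot show whether same-numbered arrays shared a litter or a batch. Of 1790 member values under alternatives 17 became called and 0 lost a call; 87 uncalled values changed sign, 75 of them on leaving out an array, all from main values of at most 0.34 in size. Dusp7 in Fgf10+/- hyperoxia reversed from 0.77 to -0.01 when its features were averaged. Fosb and Junb lay near the array median, and what dim signal adds to their spread was not tested. Differences within the intervals given were not detectable with 4 arrays a group.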
